A study of Mus musculus with 12 samples.

Results

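The nuclear receptor genes examined here were 34 of the 22276 gene symbols in the expression table, and all 34 were taken by symbol from a list of receptor subfamilies. They comprised the PPARs (Ppara, Ppard, Pparg), the retinoic acid receptors (Rara, Rarb, Rarg), the retinoid X receptors or RXRs (Rxra, Rxrb, Rxrg), the oestrogen-related receptors (Esrra, Esrrb, Esrrg) and the thyroid hormone receptors (Thra, Thrb). Receptors for vitamin D (Vdr), oestrogen (Esr1), progesterone (Pgr), mineralocorticoids (Nr3c2), oxysterols (Nr1h2, Nr1h3) and xenobiotics (Nr1i2, Nr1i3) followed. The others were Nr2c1, Nr2c2, Nr2f1, Nr2f2, Nr2f6, Nr4a2, Nr4a3, Nr5a2, Nr6a1, Hnf4a, Hnf4g and Rora, several of which have no established hormone. RNA-seq had been run on white and brown adipose tissue (WAT and BAT), liver and quadriceps muscle. All mice were male C57BL/6J animals of 17 wk. NCD-veh mice ate a normal chow diet and received vehicle, HFD-veh mice ate a high-fat diet from 8 wk of age and received vehicle, and HFD-ncls mice ate the same high-fat diet and received narciclasine (ncls), a plant alkaloid. Vehicle (hydroxypropyl cyclodextrin) or ncls at 1 mg/kg was given weekly by oral gavage from 10 wk. Each of the 4 organs gave 1 library per group, 12 in all, and the number of mice in a library is not stated. Where 3 values of an organ follow each other, they stand in the order NCD-veh, then HFD-veh, then HFD-ncls.

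Nuclear receptors are transcription factors that carry a zinc-finger domain for DNA and, in most cases, a pocket for a small lipophilic ligand such as a steroid, a thyroid hormone, a retinoid, an oxysterol or a fatty acid. Many of them, among them the PPARs, the retinoic acid and thyroid hormone receptors, the liver X receptors (encoded by Nr1h2 and Nr1h3), PXR (Nr1i2) and CAR (Nr1i3), bind DNA as heterodimers with an RXR. PPAR-gamma is required to make and maintain fat cells, PPAR-alpha drives fatty acid oxidation in liver, and the oestrogen-related receptors control mitochondrial genes in muscle and brown fat.

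Expression was given as FPKM, the number of fragments per kilobase of exon, scaled to all mapped fragments. The FPKM of all genes summed to 254403 in HFD-veh BAT and to 516221 in NCD-veh liver, so the scale differs between organs. No rescaling between organs was done, and the organ orders and overlaps below hold for the deposited FPKM only. From the steps in low values, the libraries held about 18600000 (HFD-ncls WAT) to 26200000 fragments (HFD-veh muscle). With 1 library per organ and group there is no spread between mice, and a ratio within an organ is a description without a test. In bulk tissue, fewer cells of a type and less RNA per cell cannot be told apart. Each organ expressed its defining markers, but some libraries also held RNA of a neighbouring or handled tissue. Over 578 liver-enriched genes the median level in muscle was 0.701% of that in liver for HFD-veh, against 0.0150% for NCD-veh and 0.0126% for HFD-ncls. The same genes stood at 0.114%, 0.227% and 0.490% in WAT. Over 300 muscle-enriched genes, BAT stood at 2.65%, 1.25% and 0.380% of the muscle level in the same order.

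Promoter sequence is shown for the receptor genes with the most restricted liver expression (Hnf4a, Nr1i2, Nr1i3, Nr5a2) and for Pparg, the most abundant of the 34 receptor transcripts in both fat depots, because their levels set the organ profiles described next. RefSeq promoters (GRCm38.p6 table) matched 32 of the 34 genes, with 52 start sites, and Hnf4g and Thra were not matched. Each stretch covers the 250 bases before a start, 5′ to 3′ on the strand of the gene, and was placed on mm9, the build of the deposited values, by an exact match that occurred at 1 position. Capitals mark the letters AGGTCA, the core motif recognised by most nuclear receptors, on either strand (TGACCT on the other).
Hnf4a, upstream start (chr2:163332343-163332592, + strand): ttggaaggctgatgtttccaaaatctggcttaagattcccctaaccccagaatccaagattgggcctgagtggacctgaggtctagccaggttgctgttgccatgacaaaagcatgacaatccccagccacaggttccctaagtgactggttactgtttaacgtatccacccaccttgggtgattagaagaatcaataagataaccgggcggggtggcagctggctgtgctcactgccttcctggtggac
Hnf4a, downstream start (chr2:163372641-163372890, + strand): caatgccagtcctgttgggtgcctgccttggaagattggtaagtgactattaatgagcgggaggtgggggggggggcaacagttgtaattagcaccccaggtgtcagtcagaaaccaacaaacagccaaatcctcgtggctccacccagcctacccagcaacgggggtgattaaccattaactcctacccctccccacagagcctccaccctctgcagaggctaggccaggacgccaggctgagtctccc
Nr1i2 (chr16:38294911-38295160, - strand): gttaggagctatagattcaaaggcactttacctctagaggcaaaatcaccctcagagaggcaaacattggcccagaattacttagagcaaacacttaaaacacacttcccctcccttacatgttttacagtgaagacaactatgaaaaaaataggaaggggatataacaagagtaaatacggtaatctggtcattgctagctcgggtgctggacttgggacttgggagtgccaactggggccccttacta
Nr1i3 (chr1:173143851-173144100, + strand): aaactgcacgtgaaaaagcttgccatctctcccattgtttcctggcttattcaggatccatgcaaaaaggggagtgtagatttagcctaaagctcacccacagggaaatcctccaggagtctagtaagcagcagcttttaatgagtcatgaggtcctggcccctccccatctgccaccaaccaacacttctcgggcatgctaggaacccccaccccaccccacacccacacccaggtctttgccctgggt
Nr5a2, upstream start (chr1:138857026-138857275, - strand): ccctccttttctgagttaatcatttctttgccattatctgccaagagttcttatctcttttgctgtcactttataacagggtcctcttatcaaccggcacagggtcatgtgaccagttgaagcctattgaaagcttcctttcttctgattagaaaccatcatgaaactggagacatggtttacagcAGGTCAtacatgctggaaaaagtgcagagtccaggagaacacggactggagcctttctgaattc
Pparg, the first start (chr6:115310912-115311161, + strand): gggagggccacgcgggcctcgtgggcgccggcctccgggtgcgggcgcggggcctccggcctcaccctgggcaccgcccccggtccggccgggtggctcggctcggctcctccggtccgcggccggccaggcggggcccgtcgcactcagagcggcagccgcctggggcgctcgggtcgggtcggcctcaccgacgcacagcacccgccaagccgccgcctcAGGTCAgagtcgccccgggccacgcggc
Pparg, the second start (chr6:115312117-115312366, + strand): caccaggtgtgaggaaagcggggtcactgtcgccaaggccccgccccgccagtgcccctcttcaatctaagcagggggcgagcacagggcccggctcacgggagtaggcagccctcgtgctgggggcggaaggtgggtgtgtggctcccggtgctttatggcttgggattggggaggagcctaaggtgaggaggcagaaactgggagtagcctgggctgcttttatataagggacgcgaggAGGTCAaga

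AGGTCA lay 64 to 59 bases before the upstream start of Nr5a2. It lay 28 to 23 and 9 to 4 bases before the first and the second start of Pparg. The stretches of Hnf4a, Nr1i2 and Nr1i3 held no match, nor did those of the downstream start of Nr5a2 and the third start of Pparg, which are not printed. Among all 32851 promoters in the table, 14% held the motif in the same window, and among the 52 starts of the receptor genes 8 did, in Nr5a2, Nr6a1, Pparg, Rarg, Rxra, Rxrg and Thrb. A match in these letters is not a measured binding site. The expression table gives 1 value per gene, so the starts of Hnf4a, Nr5a2 or Pparg cannot be told apart in the levels.

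Of the 34 genes, 30 reached 1 FPKM in at least 1 library. Esrrb stayed at or below 0.644 FPKM, Vdr at or below 0.506, Hnf4g at or below 0.0295 and Pgr at or below 0.00674. Between 20 (HFD-ncls BAT) and 25 (HFD-veh liver) of the genes reached 1 FPKM in a library. Pparg was the highest of them in every WAT and BAT library, Hnf4a or Nr1i3 in the liver libraries, and Rxra or Rxrg in the muscle libraries. Among the 30 genes, 12 had their highest organ mean in WAT, 6 in BAT, 8 in liver and 4 in muscle. The shares over all 13648 genes with at least 1 FPKM in at least 1 library were 58.1%, 10.5%, 16.8% and 14.6%. Receptor genes were thus less often highest in WAT than all genes, and more often in BAT and liver. These differences in share were not tested. For 17 of the 30 receptor genes, all 3 libraries of the highest organ lay above all 9 others, while this was so for 75.2% of the 13648 genes. In an additive limma fit of organ and group over the 12 libraries, the organ term passed for 29 of the 30 genes, beside 97.9% of all genes tested. The exception was Nr3c2, the mineralocorticoid receptor, with an adjusted p of 0.0716 in that fit.

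**Figure D1:**
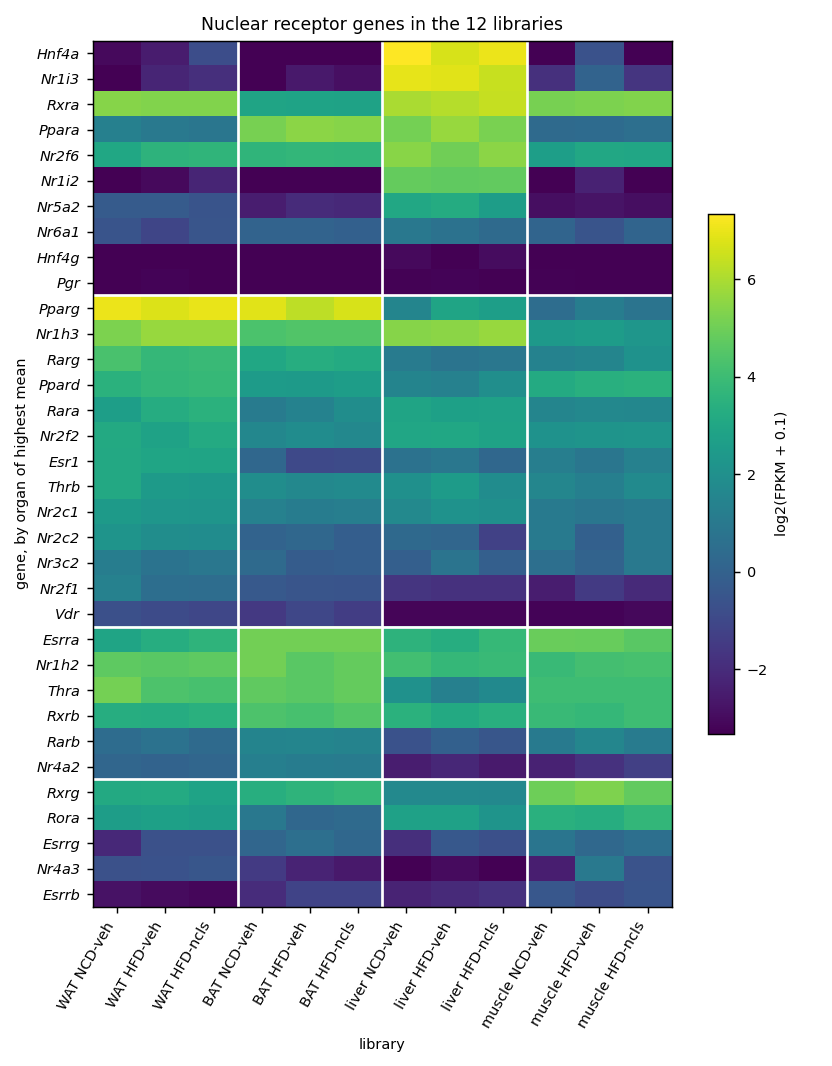
Levels of the 34 nuclear receptor genes (rows, grouped by the organ with the highest mean) in the 12 libraries (columns), as log2(FPKM + 0.1). Hnf4a, Nr1i3 and Nr1i2 are bright in the liver columns alone, Pparg is brightest in WAT and BAT, and Rxrg is brightest in muscle.

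In liver, 8 receptor genes had their highest organ mean. Hnf4a, the hepatocyte master regulator, stood at 162, 105 and 131 FPKM in liver. It was listed at 0 in all 3 BAT libraries and in NCD-veh and HFD-ncls muscle. Hnf4a read 0.540 FPKM in HFD-veh muscle and 0.0211, 0.0759 and 0.477 FPKM in WAT. The muscle and WAT readings were highest in the libraries with the most liver RNA. The liver share of those libraries multiplied by the liver level comes to 0.733 FPKM for the HFD-veh muscle library and 0.641 FPKM for HFD-ncls WAT, at or above the values read there.

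Nr1i3 (CAR, which induces drug-metabolising enzymes) read 123, 115 and 85.7 FPKM in liver. Outside liver its highest value was 0.943 FPKM, in HFD-veh muscle, where the liver share multiplied by the liver level came to 0.808. Nr1i2 (PXR) read 28.4, 26.5 and 27.6 FPKM in liver and at most 0.112 elsewhere. These 3 liver values of PXR lay close together, while those of CAR were lowest in HFD-ncls. Nr1i3 shares up to 1392 bases of exon with Tomm40l on the opposite strand, and Tomm40l itself read 52.6, 42.5 and 28.4 FPKM in the same libraries. Library strandedness is not given in the sources used here, so reads of these neighbours cannot be told apart in the shared stretch.

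Nr5a2 (LRH-1, a regulator of bile acid synthesis) read 8.22, 9.32 and 5.99 FPKM in liver, with 0.591 to 0.747 in WAT. Nr2f6 read 43.7, 32.1 and 44.7 FPKM in liver in the same order and 6.26 to 13.2 in the other organs. Nr6a1, a receptor best known from germ cells, was also highest in liver but low there, at 1.80, 1.51 and 1.19 FPKM. Rxra, the common dimer partner, read 62.6, 71.2 and 84.3 FPKM in liver and 41.8 or less in the other organs. All liver values of Nr5a2, Nr2f6, Nr6a1 and Rxra lay above every value in the other organs. Ppara read 34.3, 52.4 and 36.9 FPKM in liver and 35.2, 45.1 and 41.7 in BAT, and the ranges of liver and BAT overlapped. It reached only 1.72 to 2.41 FPKM in WAT and 1.20 to 1.37 in muscle.

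In the fat depots Pparg read 129, 109 and 125 FPKM in WAT. In BAT it read 116, 78.4 and 104 FPKM in that order, and the WAT and BAT ranges overlapped. Liver held 2.81 to 7.47 FPKM and muscle 1.32 to 2.20. Rarg, a retinoic acid receptor, was highest in WAT, at 19.4, 13.5 and 14.7 FPKM, and BAT followed at 8.17 to 9.93. Esr1, the oestrogen receptor, read 8.44, 7.63 and 7.29 FPKM in WAT and no more than 2.44 in any other library. Nr2c1 (4.66 to 5.52 FPKM), Nr2c2 (3.58 to 4.42) and Nr2f1 (1.28 to 2.47) also had WAT ranges above all other libraries. Nr2c1 and Nr2c2 encode the orphan receptors TR2 and TR4, and Nr2f1 encodes COUP-TFI. The mean of Ppard, Rara, Thrb, Nr1h3, Nr2f2 and Nr3c2 was also highest in WAT, but for these 6 the WAT range overlapped that of the next organ.

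In BAT, 6 receptor genes had their highest organ mean. Esrra, which encodes ERR-alpha, read 33.6, 33.7 and 33.2 FPKM in BAT and 24.5 to 29.5 in muscle. Rxrb read 18.9 to 22.1 FPKM in BAT and 8.85 to 16.1 elsewhere. Nr4a2 (Nurr1) read 2.35, 2.13 and 2.09 FPKM in BAT and 1.06 or less in the other libraries. The BAT ranges of Esrra, Rxrb and Nr4a2 lay above all other organs. Thra (24.1 to 28.3 FPKM in BAT, 18.7 to 34.1 in WAT), Nr1h2 (24.7 to 33.4 in BAT, 24.3 to 26.1 in WAT) and Rarb (2.65 to 2.81 in BAT, 1.97 to 2.89 in muscle) had overlapping ranges in the organs named.

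Muscle was marked by Rxrg, at 31.4, 39.3 and 27.4 FPKM in the 3 groups, with 13.7 or less in every other library. Rora, a receptor of the circadian and lipid programmes, read 10.8, 9.80 and 13.1 FPKM in muscle, above its 1.07 to 6.81 in the other organs. Esrrg read 1.68, 1.10 and 1.4 FPKM in muscle and 1.03 to 1.4 in BAT, which overlapped. Nr4a3 (NOR-1, an immediate-early gene) was the most uneven receptor gene in muscle, at 0.0876, 1.86 and 0.572 FPKM. In the other organs Nr4a3 stayed at or below 0.619 FPKM.

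Paralogues of a subfamily divided the organs between them. Of the summed PPAR transcripts, Pparg made up 87.8% to 90.6% in WAT and 60.8% to 73.9% in BAT. Ppara made up 78.8% to 86.2% in liver, and Ppard 75.3% to 78.7% in muscle. Among the RXRs, Rxra accounted for 81.4% to 86.2% in liver and 68.0% to 69.1% in WAT, and Rxrb for 49.4% to 54.0% in BAT. In muscle Rxra (41.5% to 47.8%) and Rxrg (32.9% to 43.4%) were the main forms. Nr1h3, which encodes LXR-alpha, made up 71.0% to 77.5% of the LXR transcripts in liver, while Nr1h2 (LXR-beta) made up 73.9% to 79.8% in muscle. Thra accounted for 78.6% to 89.5% of the thyroid hormone receptor transcripts in WAT, BAT and muscle, and for 50.6%, 29.7% and 48.1% in liver. Esrra made up 92.5% to 97.7% of the oestrogen-related receptor transcripts over all libraries.

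The balance of RXRs and 13 partner genes also differed between organs. The 3 RXR genes summed to 58.0 to 60.6 FPKM in WAT, 38.2 to 42.7 in BAT, 77.0 to 97.8 in liver and 81.6 to 90.5 in muscle. The 13 genes encode the PPARs, the retinoic acid, thyroid hormone, liver X and vitamin D receptors, PXR and CAR. They summed to 4.24 to 4.64 times the RXR level in WAT and 5.71 to 6.64 times in BAT. In liver the sum was 2.49 to 3.48 times and in muscle 0.712 to 0.803 times the RXR level. Muscle was the organ in which the RXR sum exceeded that of these 13 genes, in all 3 libraries. Receptors outside the 13 were not counted, among them Nr4a1 (36.1, 62.4 and 61.3 FPKM in muscle) and Nr1h4 (56.1, 68.5 and 63.6 FPKM in liver). The order of the sums in muscle therefore depends on which partners are counted. Transcript sums do not measure protein.

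**Figure D2:**
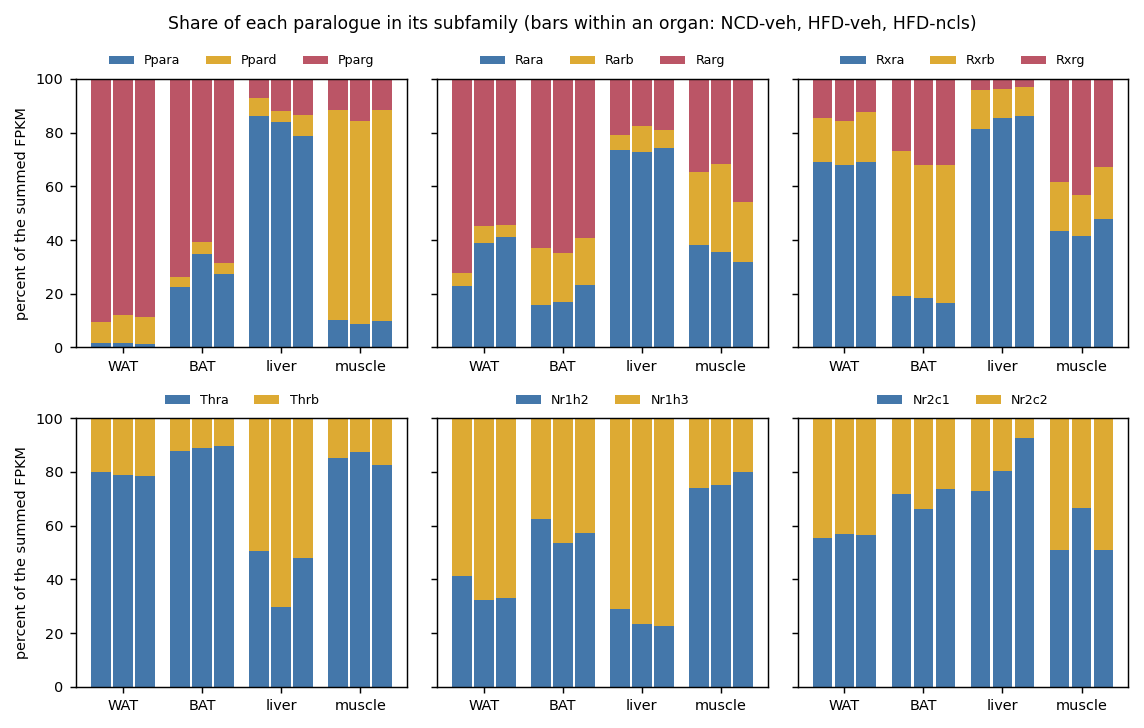
Share of each paralogue (percent of the summed FPKM of its subfamily) for the PPARs, retinoic acid receptors, RXRs, thyroid hormone receptors, liver X receptors and Nr2c genes, with 3 bars per organ in the order NCD-veh, HFD-veh and HFD-ncls. The leading PPAR is Pparg in WAT and BAT, Ppara in liver and Ppard in muscle in all 3 groups.

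The comparison of HFD-veh with NCD-veh asks which receptors differ with the diet. Ratios were taken on log2(FPKM + 0.1) for genes with at least 1 FPKM in at least 1 of both libraries, and a gene is called here when its ratio exceeds 1.4-fold, a fold used in the study. In WAT, 2 of 23 receptor genes were called higher, beside 16.3% of all genes, and 4 lower, beside 13.0%. None was past 2-fold, against 9.11% of all genes. Nr2f1 read 2.47 FPKM in NCD-veh and 1.33 in HFD-veh WAT, a log2 difference of -0.85. Thra read 34.1 and 20.6 FPKM (-0.73), and Thrb 8.64 and 5.54 FPKM (-0.63), so both thyroid hormone receptor genes were lower in HFD-veh. Rarg read 19.4 and 13.5 FPKM (-0.51). Rara was higher in HFD-veh, at 6.14 and 9.56 FPKM (0.63), as was Nr2f6, at 7.96 and 11.7 FPKM (0.55). With the trends over all genes on transcript length and GC content removed, Nr2f6 stood at 0.44 and was no longer called, while Nr3c2 stood at -0.49 and was. The share of Rara among the retinoic acid receptors went from 22.9% in NCD-veh to 38.8% in HFD-veh WAT. A stretch of up to 263 bases of Thra overlaps Nr1d1 on the opposite strand, and Nr1d1 read 137 and 65.7 FPKM in these libraries. The part of this overlap in the Thra values was not tested. Macrophage markers summed to 639 FPKM in NCD-veh and 917 in HFD-veh WAT, and their part in these differences was not tested.

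In BAT, no receptor gene of 23 was called higher with the diet (9.34% of all genes were) and 4 were called lower (8.24% of all genes). Esr1, at 1.08 FPKM in NCD-veh and 0.409 in HFD-veh, was the only receptor gene past 2-fold there (log2 -1.21), beside 4.29% of all genes. Its values rest on about 179 and 65.1 fragments. Rora read 1.83 and 1.07 FPKM (-0.72), Nr3c2 1.17 and 0.764 (-0.56) and Pparg 116 and 78.4 (-0.56). Muscle RNA was also lower in the HFD-veh BAT library. Subtracting the muscle share would remove 0.285 FPKM of Rora in NCD-veh and 0.122 in HFD-veh, and 0.0598 and 0.0212 FPKM of Esr1, and it changed no call. With the GC trend alone removed, Pparg stood at -0.48 and was no longer called, and with both trends removed it was called at -0.50.

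In liver, 4 of 25 receptor genes were called higher in HFD-veh, beside 13.3% of all genes, and 2 lower, beside 10.5%. Pparg read 2.81 FPKM in NCD-veh and 7.47 in HFD-veh liver, a log2 difference of 1.38, and was the only receptor gene past 2-fold, beside 5.12% of all genes. Nr3c2 read 0.835 and 1.64 FPKM (0.90), Ppara 34.3 and 52.4 FPKM (0.61) and Thrb 3.95 and 5.72 FPKM (0.52). Hnf4a was lower in HFD-veh liver, at 162 and 105 FPKM (-0.63), and so was Thra, at 4.05 and 2.42 FPKM (-0.72). Adipocyte markers summed to 4.45 FPKM in NCD-veh and 17.1 in HFD-veh liver, beside 17419.8 FPKM in HFD-veh WAT. Adipoq, Lep and Retn were listed at 0 in both liver libraries, and the part of fat cell RNA in the liver Pparg values was not tested. Across all genes this liver ratio ran against GC content (Spearman's rho -0.421 over 9312 genes, a description across genes). With the trends on transcript length and GC content removed, the log2 difference was 1.18 for Pparg, 0.79 for Nr3c2, 0.57 for Ppara, -0.58 for Hnf4a and -0.51 for Thra. With GC content alone removed Thra stood at -0.47 and was not called. Thrb, with the lowest GC content of these genes, moved from 0.52 to 0.33 and was no longer called.

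In muscle, 3 of 23 receptor genes were called higher in HFD-veh, beside 7.74% of all genes, and 3 lower, beside 5.51%. Nr4a3 read 0.0876 FPKM in NCD-veh and 1.86 in HFD-veh muscle, on about 12.5 and 278 fragments, with a log2 difference of 3.38. Nr2c2 read 1.92 and 0.863 FPKM, a log2 difference of -1.07. These were the 2 receptor genes past 2-fold, beside 4.11% of all genes. Pparg read 1.32 and 2.20 FPKM (0.70), Rarb 1.97 and 2.89 (0.53), Nr3c2 1.4 and 0.947 (-0.52) and Esrrg 1.68 and 1.10 (-0.57). The HFD-veh muscle library is the one with the largest liver share, which would account for 0.0523 FPKM of Pparg, and its subtraction changed no call. Among 6 adipocyte markers in NCD-veh and HFD-veh muscle, Adipoq read 11.4 and 21.1 FPKM, Retn 9.24 and 19.3, Plin1 2.02 and 4.97, Lep 0.133 and 5.04, Fabp4 232 and 284, and Cfd 76.7 and 33.4. Of these, 5 were higher in HFD-veh and Cfd was lower, and their sum was 331 and 367 FPKM. The part of fat cell RNA in the muscle Pparg values was not tested. With length and GC content taken out, Nr4a3 (3.45), Nr2c2 (-0.89) and Esrrg (-0.52) were still called, while Pparg (0.43), Rarb (0.41) and Nr3c2 (-0.44) were not.

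The comparison of HFD-ncls with HFD-veh addresses the drug on the high-fat diet. It uses the same HFD-veh libraries as the diet comparison, so a high or low value in an HFD-veh library moves both ratios in opposite directions. In WAT no receptor gene of 23 was called, beside 6.39% of all genes higher and 1.28% lower (1.70% past 2-fold). The log2 differences lay between -0.36 and 0.38. In BAT no receptor gene of 21 was called either, beside 2.25% higher and 6.28% lower of all genes (1.97% past 2-fold), and the differences lay between -0.39 (Nr2c2) and 0.47 (Rara). Pparg read 109 and 125 FPKM in WAT and 78.4 and 104 FPKM in BAT in HFD-veh and HFD-ncls.

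In liver, 2 of 25 receptor genes were called higher in HFD-ncls, beside 6.88% of all genes, and 7 lower, beside 8.07%. Nr2c2 read 1.16, 1.03 and 0.316 FPKM, and the last pair of values rests on about 177 and 56.8 fragments. Its log2 difference of -1.44 was the only one past 2-fold, beside 2.31% of all genes. Nr3c2 read 1.64 and 0.826 FPKM (-0.91), beside 0.835 in NCD-veh. Esr1 read 1.79 and 1.07 FPKM (-0.69), Thrb 5.72 and 3.54 (-0.68), Nr5a2 9.32 and 5.99 (-0.63), Rora 6.68 and 4.48 (-0.57) and Ppara 52.4 and 36.9 (-0.50). HFD-veh was the high liver library for Ppara, Thrb and Nr3c2, with NCD-veh and HFD-ncls close together. Ppard read 2.45 and 3.70 FPKM (0.58) and Esrra 10.0 and 14.2 FPKM (0.50). Pparg differed less, at 7.47 and 6.22 FPKM (-0.26). Hnf4a read 105 and 131 FPKM (0.32).

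The liver ratio of HFD-ncls to HFD-veh followed GC content across all genes, with Spearman's rho of 0.591 over 9280 genes, and transcript length with rho of -0.223. The median log2 difference was -0.24 in the fifth of genes with the lowest GC content and 0.27 in the fifth with the highest. The receptor genes called lower had transcripts of 43.9% GC (Nr5a2), 40.9% (Rora), 44.0% (Thrb), 45.4% (Esr1), 46.1% (Nr2c2), 47.5% (Nr3c2) and 51.5% (Ppara), while the genes called higher, Ppard and Esrra, had 59.5% and 61.8%. With both trends removed, the called receptor genes numbered 4 in place of 9, all lower. They were Nr2c2 (-1.19), Nr3c2 (-0.75), Nr1i3 (-0.55) and Ppara (-0.53). Rora moved from -0.57 to -0.04, Ppard from 0.58 to 0.25 and Esrra from 0.50 to 0.12. Whether the GC trend is of the libraries or of the livers was not tested.

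In muscle, 5 of 23 receptor genes were called higher in HFD-ncls, beside 8.46% of all genes, and 2 lower, beside 5.48%. Nr4a3 went from 1.86 FPKM without ncls to 0.572 with ncls (-1.54). Nr2c2 read 0.863 and 1.93 FPKM (1.08). These were the 2 past 2-fold, beside 3.80% of all genes. For Nr2c2, HFD-ncls muscle was level with NCD-veh muscle, at 1.93 and 1.92 FPKM, and HFD-veh was the low library. For Nr4a3, HFD-ncls lay between the others. Nr3c2 read 0.947 and 1.91 FPKM (0.94), Rarg 2.76 and 4.28 (0.62), Thrb 2.33 and 3.37 (0.51) and Esr1 1.69 and 2.44 (0.50). Rxrg read 39.3 and 27.4 FPKM (-0.52). Across all genes this ratio followed transcript length (rho 0.387 over 9075 genes), and the transcripts of Nr2c2, Esr1, Thrb and Nr3c2 span 7647, 6339, 6081 and 5916 bases, against a median of 2547. With both trends removed, Nr2c2 (0.78), Nr3c2 (0.73), Rarg (0.56) and Nr4a3 (-1.74) were called, and Thrb (0.31), Esr1 (0.28) and Rxrg (-0.46) were not. Up to 3533 bases of Nr2c2 overlap Mrps25 on the opposite strand. Mrps25 read 3.84, 4.09 and 3.74 FPKM in muscle and 2.97, 2.88 and 3.17 in liver in the 3 groups. The part of this overlap in the Nr2c2 values was not tested.

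**Figure D3:**
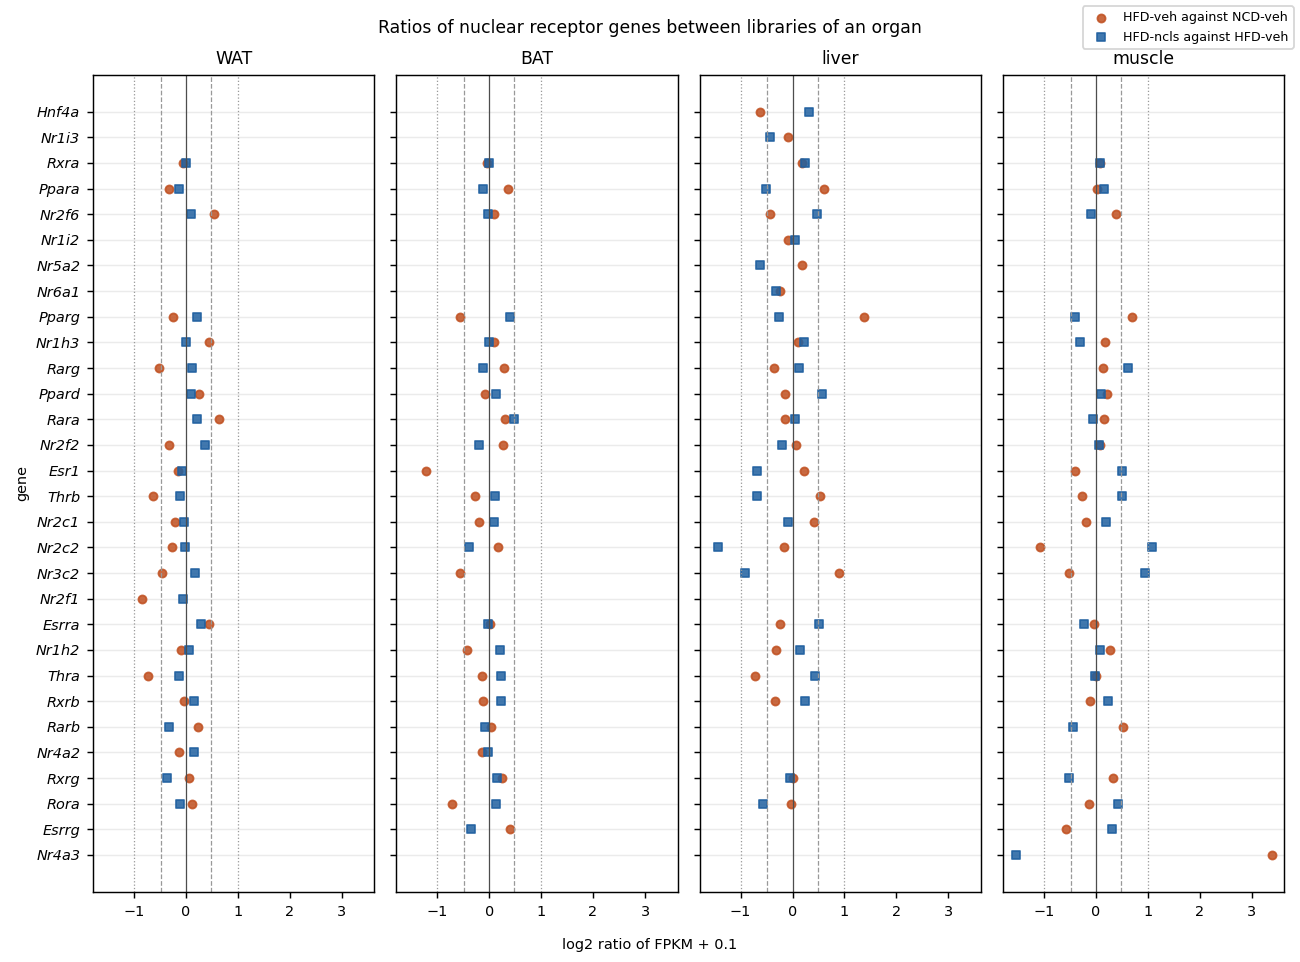
Log2 ratio of FPKM + 0.1 for each receptor gene that reached 1 FPKM in either library (rows), by organ, for HFD-veh against NCD-veh (circles) and HFD-ncls against HFD-veh (squares), with dashed lines at 1.4-fold and dotted lines at 2-fold. All squares of WAT and BAT lie inside the dashed lines, and Nr4a3 in muscle has the largest ratio, 3.38.

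**Figure D4:**
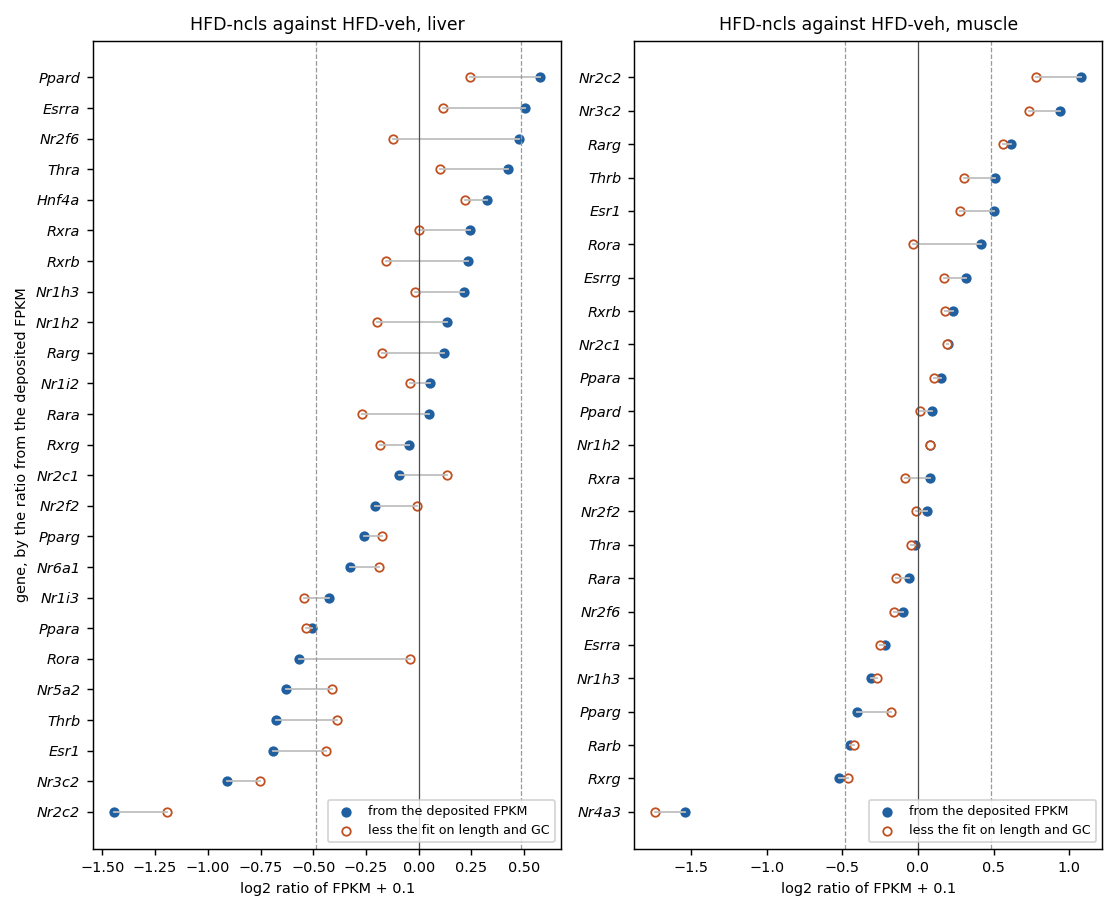
Log2 ratio of HFD-ncls to HFD-veh in liver and muscle from the deposited FPKM (filled) and after removal of the trends on transcript length and GC content (open), with dashed lines at 1.4-fold. In liver Rora moves from -0.57 to -0.04, while Nr2c2 stays past the line at -1.19.

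The direction of the difference was also compared over the 4 organs. Of 20 genes that could be followed in the 4 organs, Nr1h3 and Rxrg had higher values in HFD-veh than NCD-veh in all of them, beside 7.12% of all such genes, and Rxrb lower values, beside 5.72%. Of 18 genes, Nr1h2, Ppard and Rxrb had higher values in HFD-ncls than HFD-veh in the 4 organs, beside 9.00% of all such genes, and none had lower values throughout, beside 5.99%. In the additive limma fit, no receptor gene of 30 and 0% of all 13648 genes passed for a diet difference shared by the organs. The same was true of an ncls difference, again at 0%. At an unadjusted p under 0.05 there were 1023 genes for the diet, among them Rarb, Thra and Nr1i3, and 348 genes for ncls, among them Rarb and Rxrb. Nr1i3 reached at most 0.943 FPKM outside liver, in HFD-veh muscle, where the liver share multiplied by the liver level came to 0.808. In liver Nr1i3 read 123 FPKM in NCD-veh and 115 in HFD-veh. The estimate for Thra was -0.39 ± 0.16 (SE) on the log2 scale with the diet, with an adjusted p of 0.658 in limma. Rxrb came to 0.21 ± 0.08 (SE) with ncls, and its adjusted p was 1 in the same fit.

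Genes known to be controlled by these receptors were read from lists of textbook targets. In liver, none of 12 PPAR-alpha targets was called higher in HFD-ncls (6.88% of all genes were) and 5 were called lower (8.07%), and Ppara itself was lower. With the trends on transcript length and GC content removed, 4 of these targets were called lower with ncls. Cyp4a14 and Cyp4a10, hydroxylases of fatty acids, read 233 and 32.6 FPKM and 277 and 80.8 FPKM in HFD-veh and HFD-ncls. Vnn1, a pantetheinase, read 34.1 and 14.9 FPKM. With the diet the list was mixed, with 2 called higher and 3 lower (13.3% and 10.5% of all genes), or 6 lower with both trends removed. Fgf21, a fasting hormone, read 8.83 FPKM in NCD-veh and 3.29 in HFD-veh liver. The median log2 difference of the list was -0.12 with the diet and -0.40 with ncls, beside 0.04 and 0.02 over all genes.

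Of the PPAR-gamma targets, 6 of 10 reached 1 FPKM in liver. With the diet 4 were called higher and 1 lower (13.3% and 10.5% of all genes), in the library in which Pparg was also higher. Among the 4, Cfd (0.163 FPKM in NCD-veh and 10.2 in HFD-veh) and Fabp4 (4.29 and 6.90) are also adipocyte markers. The part of fat cell RNA in these values was not tested. Cd36, a fatty acid transporter, read 5.98, 21.5 and 7.38 FPKM in liver. Cidec, a lipid droplet protein, read 1.75, 5.88 and 2.43 FPKM. Both were highest in HFD-veh, as was Pparg. In WAT, where Pparg read 129 and 109 FPKM, Cfd (adipsin) read 8163 FPKM in NCD-veh and 653 in HFD-veh, and Pck1, an enzyme of glyceroneogenesis, 836 and 141 FPKM.

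CAR and PXR targets were called in both directions in liver with the diet, with 4 of 9 higher and 2 lower, beside 13.3% and 10.5% of all genes. Cyp2b9, a cytochrome P450, read 0.0525, 27.0 and 0.403 FPKM in liver. Cyp2b13 read 0.0175, 1.47 and 0.0409 FPKM, and Cyp2b10 read 0.697, 1.17 and 0.182 FPKM, so that HFD-veh was the high library for all 3. Of 8 targets, 6 were called lower and 1 higher in HFD-ncls, beside 8.07% and 6.88% of all genes. With the trends on transcript length and GC content removed, 5 were called lower and 1 higher. Nr1i3 read 115 and 85.7 FPKM and Nr1i2 26.5 and 27.6 FPKM in HFD-veh and HFD-ncls. Cyp3a11, a PXR target, was lower with the diet, at 1165 and 330.1 FPKM. Cyp2b9, Cyp2b10 and Cyp2b13 are close in sequence and can share reads, so the split between them is uncertain.

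Of LXR targets in liver, Srebf1, the lipogenic factor SREBP-1, read 13.3, 69.9 and 95.0 FPKM in the 3 groups, while Nr1h3 read 41.7, 44.8 and 51.9 and Nr1h2 17.1, 13.7 and 15.0. Pltp, a lipid transfer protein, read 13.3, 14.1 and 34.1 FPKM. In WAT, 4 of 6 LXR targets were called higher with the diet and none lower, beside 16.3% and 13.0% of all genes. With the trends on transcript length and GC content removed, 3 were called higher and none lower. Among thyroid hormone receptor targets, 4 of 6 were called higher and 2 lower in HFD-veh liver (13.3% and 10.5% of all genes), where Thrb was higher and Thra lower. Thrsp, a lipogenic gene, read 27.4 and 887 FPKM and Me1, malic enzyme, 24.4 and 65.5 FPKM in NCD-veh and HFD-veh. Many of these targets also answer to other factors, and the part of the receptors in the differences was not tested.

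Outside liver the target lists gave the following counts. In WAT, 3 PPAR-alpha targets of 9 were called higher and 3 lower with the diet, and 0 higher and 1 lower with ncls. Of all genes in WAT, 16.3% were higher and 13.0% lower with the diet, and 6.39% and 1.28% with ncls. No PPAR-gamma target of 10 was called higher in WAT with the diet and 3 were lower, and none was called with ncls. In BAT, 3 of 9 PPAR-alpha targets and 3 of 10 PPAR-gamma targets were called higher with the diet, and 0 and 3 lower, beside 9.34% higher and 8.24% lower of all genes. With ncls 1 gene of either list was called higher in BAT and none lower, beside 2.25% and 6.28% of all genes. In muscle, Pdk4, a brake on glucose oxidation, read 404, 122 and 415 FPKM in the 3 groups. Of 10 PPAR-alpha targets in muscle, 4 were called higher with the diet and 2 lower, Pdk4 among the lower, beside 7.74% and 5.51% of all genes. With ncls 3 were called higher and 3 lower, beside 8.46% and 5.48% of all genes. Of 10 PPAR-gamma targets in muscle, 4 were called higher and 2 lower with the diet, and 3 higher and 4 lower with ncls. The muscle targets called higher with the diet included Cyp4a10 and Cyp4a14, and all 3 CAR and PXR targets called there (Cyp3a11, Cyp2c29, Ugt1a1), which are genes of hepatocytes. These were read in the HFD-veh muscle library, in which hepatocyte markers summed to 350.0 FPKM against 0.957 in NCD-veh and 0.619 in HFD-ncls.

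**Figure D5:**
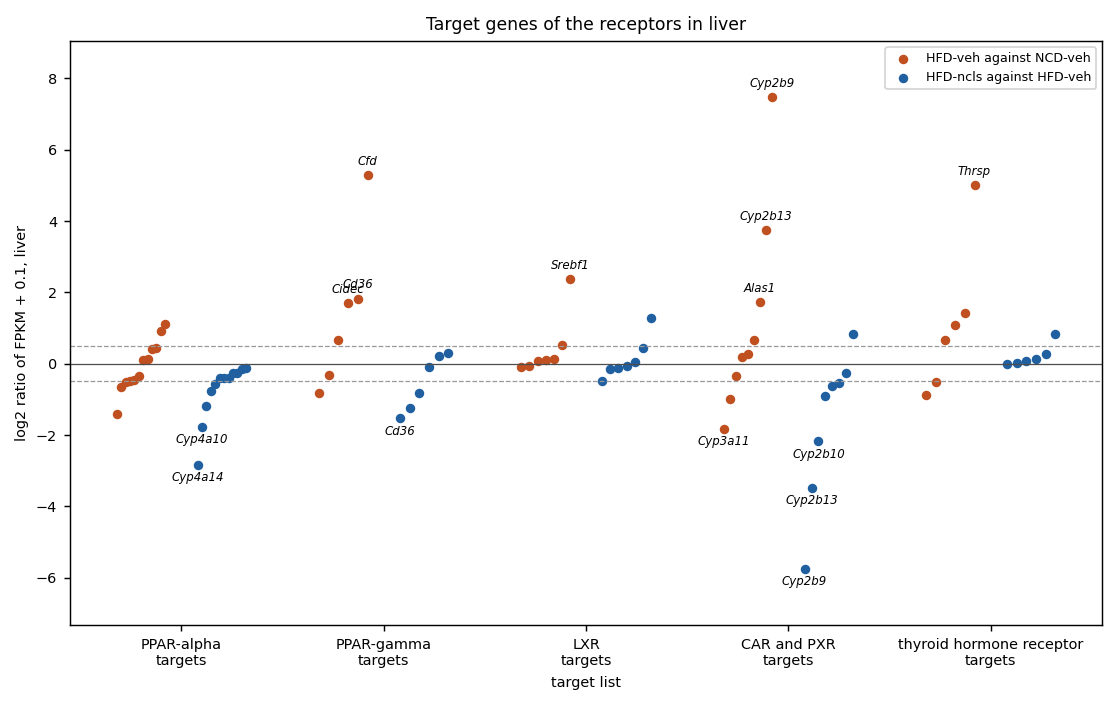
Log2 ratios in liver of the genes of 5 target lists that reached 1 FPKM, for HFD-veh against NCD-veh and HFD-ncls against HFD-veh, with dashed lines at 1.4-fold and genes past 1.5 on the log2 scale named. Cyp2b9 is highest with the diet and lowest with ncls, and no PPAR-alpha target lies above the upper line with ncls.

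Coregulators, the proteins through which receptors activate or repress transcription, were called in few cases. Of 11 coactivator genes, 3 were called higher in HFD-ncls than HFD-veh muscle (Ncoa2, Crebbp and Ep300) and none lower, beside 8.46% and 5.48% of all genes. Their transcripts span 8171, 7507 and 8749 bases. With the trends on length and GC content removed, their log2 differences went from 0.64 to 0.32, from 0.67 to 0.39 and from 0.51 to 0.16. None of these genes was then called. The coactivator gene Ppargc1a was not called from the deposited FPKM (-0.34) and was called lower only after the same removal (-0.56). It read 3.80 and 2.98 FPKM in HFD-veh and HFD-ncls muscle. The study reported the opposite direction for this gene (as PGC1-alpha), higher with ncls in quadriceps on the high-fat diet, with qRT-PCR among its evidence. Ncoa2 read 2.92, 1.86 and 2.97 FPKM and Crebbp 3.71, 2.42 and 3.90 FPKM in muscle, so that HFD-veh was the low library. The corepressor gene Nrip1 (RIP140) read 1.58, 0.745 and 2.31 FPKM in the same order, and its difference between HFD-ncls and HFD-veh was called before (1.51) and after (1.20) this removal. In BAT none of these coactivators or corepressors was called in either comparison. Of 22 genes for activation, transport and breakdown of ligands, 12 could be tested in WAT, where 1 was called higher and 6 lower with the diet, beside 16.3% and 13.0% of all genes. Cyp27a1, which makes oxysterol ligands, read 34.7 and 15.2 FPKM in NCD-veh and HFD-veh WAT. Dio2, the deiodinase that makes active thyroid hormone, read 1.32, 1.62 and 0.484 FPKM in BAT. In muscle, Hsd11b1, which regenerates glucocorticoid, read 1.67, 4.38 and 1.65 FPKM in the 3 groups. Hsd11b1 is also a liver gene, and HFD-veh was the muscle library with the highest liver share.

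The remaining 15 mouse nuclear receptor genes complete the family of 49, and 9 of them reached 1 FPKM in a library. Nr1h4 (FXR, the bile acid receptor) read 56.1, 68.5 and 63.6 FPKM in liver and 1.37 FPKM or less in the other libraries, and Nr0b2 (SHP) read 54.6, 35.8 and 22.6 FPKM there. In WAT, 6 of 7 of these genes were called lower with the diet, beside 13.0% of all genes, among them Nr1d1 (137 and 65.7 FPKM). Nr4a1, a paralogue of Nr4a3, read 36.1, 62.4 and 61.3 FPKM in muscle.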

How the data were processed

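Total RNA of 4 organs was sequenced in 3 groups of mice, 1 library per organ and group. Alignment to mm9 used TopHat 2.0.11, and the authors derived FPKM for RefSeq genes with Cufflinks. These FPKM values were deposited for 22276 symbols. FPKM carries no counts, so depth was estimated from the steps in low values.

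Columns were matched to libraries by the sample titles. Ratios used log2(FPKM + 0.1) and genes with at least 1 FPKM in either library, and calls were ratios over 1.4-fold or 2-fold, which the study's methods use. With 1 library per organ and group these ratios have no test. An additive fit of organ and group over the 12 libraries used limma 3.58.1 in R 4.3.3, with p-values adjusted over 13648 genes by the Benjamini-Hochberg method. Organs of a group may come from the same mice, and the spread in that fit is the remainder between organs and groups. Trends on transcript length and GC content used GENCODE vM1 transcripts, and gene positions came from the same annotation.

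The receptor genes and all gene lists were chosen with earlier results of these data known. All 34 receptor genes are named. Other genes are named where past 2-fold with at least 1 FPKM, up to 4 per list and comparison. Some others are named where an overlap, a paralogue or a coregulator call was at issue. Those last were chosen after their values were seen. Rescaling by median ratios moved the median of all genes by less than 0.05 on the log2 scale.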

Additional observations from a re-analysis of the deposited data

Results flagged for a closer look

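Several receptor genes lay past 1.4-fold in opposite directions in different organs under the same comparison, and the difference between organs was not tested in any of these cases, since each value comes from 2 libraries. For HFD-veh minus NCD-veh, the log2 difference of Pparg was -0.56 in BAT, 1.38 in liver and 0.70 in muscle. That of Thrb was -0.63 in WAT and 0.52 in liver, and that of Nr3c2 was -0.56 in BAT, 0.90 in liver and -0.52 in muscle. With the trends on transcript length and GC content removed, Pparg stood at -0.50, 1.18 and 0.43, Thrb at -0.60 and 0.33, and Nr3c2 at -0.55, 0.79 and -0.44, so that muscle Pparg, liver Thrb and muscle Nr3c2 were inside 1.4-fold. For HFD-ncls minus HFD-veh, Thrb stood at -0.68 in liver and 0.51 in muscle, Esr1 at -0.69 and 0.50, Nr2c2 at -1.44 and 1.08, and Nr3c2 at -0.91 and 0.94. All 4 of the latter have long transcripts, and the ratio over all genes ran down with transcript length in liver (rho -0.223) and up with it in muscle (rho 0.387). After removal of the trends on length and GC content, Nr2c2 stood at -1.19 and 0.78 and Nr3c2 at -0.75 and 0.73, still on opposite sides of 1.4-fold, while Thrb (-0.39 and 0.31) and Esr1 (-0.44 and 0.28) did not.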

How the results depend on the processing

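No receptor gene called in the main setting changed its direction under the alternatives. The counts of called receptor genes below are for either direction at 1.4-fold. They stand without the share over all genes under the same settings. They show how far the counts move, and not whether receptor genes differ from other genes. Without the filter on FPKM they came to 10 (WAT diet, from 6), 3 (WAT ncls, from 0), 7 (BAT diet, from 4), 12 (muscle diet, from 6) and 13 (muscle ncls, from 7). With a filter of 5 FPKM they came to 1 (BAT diet), 5 (liver ncls, from 9), 0 (muscle diet) and 1 (muscle ncls), with 10 to 16 genes left to test. With pseudocounts of 0.5 and 1 FPKM the muscle diet count was 3 and 2, and BAT diet was 2 with 1 FPKM, since many of these genes lie near 1 FPKM. The adjustments for transcript length and GC content were added after seeing the data. Removing the GC trend left 5 in liver with ncls. Removing both trends left 4 in liver with ncls, 3 in muscle with the diet and 4 in muscle with ncls. BAT ncls gained 1 (Rara) with the length trend or both trends removed. Rescaling by median ratios and subtraction of RNA of other organs moved no count past 1.5 times. In limma, leaving out 1 library at a time gave 29 to 30 receptor genes for the organ term and 0 for the shared diet and ncls differences, and the other limma settings also gave 0 for both. No paired analysis was possible within an organ because each organ and group has a single library; the limma fit compares the groups with organ as a term. Low depth limits Nr4a3 most, with about 12.5 fragments in NCD-veh muscle.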
